A study of Rattus norvegicus with 6 samples.

Results

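Genes for phase II conjugation in rat liver, the UDP-glucuronosyltransferases (UGT) and cytosolic sulfotransferases (SULT), were described across 6 expression arrays. Of 10 genes considered, Ugt2b1, Ugt2b7, Ugt2b17, Ugt1a1, Ugt1a6, Sult1a1, Sult1b1, Sult1c2, Sult1c3 and Sult1e1, 9 were found among the 9627 named genes by matching each probe's RefSeq transcript to a current rat symbol. They were 4 UGT and 5 SULT genes, each with 1 probe. The symbol Ugt2b17 is carried by no gene of the GRCr8 reference table used for names, where it stands as an older name of both Ugt2b1 and Ugt2b15. No row was therefore counted under it, and the Ugt2b15 row is given with the other UGT genes. The 3 dark tea livers were from males of the Sprague Dawley strain kept on a diet with 60% fat and given, into the stomach for 9 weeks, a dark tea fermented by the fungus Eurotium cristatum (CGMCC No. 8730). The 3 control livers were from males of the same strain on the same diet, given distilled water by that route for 9 weeks. Both groups thus shared the fat-rich diet, and normally fed rats were not analysed here. Cy3-labelled total RNA was read on single-colour NimbleGen arrays, 1 sample per array. Whether the replicates were separate animals or pools is not stated in the labels, so the tests measure only the spread among these arrays, which may be technical.

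Conjugating enzymes make small hydrophobic molecules water-soluble so that they can leave in bile or urine. UGT enzymes sit in the membrane of the endoplasmic reticulum and transfer glucuronic acid from UDP-glucuronic acid, whereas SULT enzymes are cytosolic and transfer sulfonate from the donor PAPS. Their substrates include bilirubin, steroid and thyroid hormones, drugs and plant phenols, and hepatocytes are a major site of both reactions. In rat, the Ugt1a genes have separate promoters and first exons joined to shared downstream exons, and the Ugt2b genes are a family of similar sequences, so signal may be shared between rows of a family. How far the probes tell such genes apart was not tested.

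Values are log2 of the deposited intensities, and differences are dark tea minus control. In limma over 26419 probes, 1 probe (0.00379%) passed an adjusted p of 0.05, and it was no member. Control replicate 1 stood apart, with a Pearson correlation over probes of at most 0.899 with any other array, against 0.9455 to 0.9724 among the other 5, and without it 6 probes (0.0227%) passed, none of them a member. The random control row, the 1 measure of background in the table, lay between 5.06 and 5.15 in the dark tea arrays and between 5.05 and 5.40 in the control arrays. All 10 hepatocyte markers listed were measured, with summed intensities of 270000 to 299000 in dark tea arrays and 278000 to 308000 in control arrays. Of 5 measured cholangiocyte markers the sums were 509 to 771 in dark tea arrays and 555 to 698 in control arrays. For 6 measured kidney tubule markers they were 444 to 560 in dark tea arrays and 463 to 661 in control arrays. All 5 cholangiocyte markers had a lower mean with dark tea (median -0.154), but 2 were higher without control replicate 1. Every array lay less than 1 log2 unit above the random control row for 3 of these 5. Kupffer cell and macrophage markers had 2 higher and 3 lower means (median -0.242). Endothelium markers had 1 higher and 1 lower, and intestinal epithelium markers 1 higher and 2 lower. Of 7 measured stellate cell markers, 6 had a higher mean with dark tea and 1 a lower mean, with a median difference of 0.206. Their sums were 2590 to 3260 in dark tea arrays and 2310 to 2520 in control arrays. Dcn was the 1 of the 7 whose groups did not overlap, as for 4.87% of all probes with dark tea higher. The Dcn difference was 1.33 ± 0.38 (SE, limma adjusted p = 0.949). The part of these markers in the results on conjugation genes was not tested. In whole liver, fewer cells of a type and less RNA per cell cannot be told apart.

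None of the 9 conjugation genes passed the adjustment over all probes, with limma adjusted p between 0.949 and 0.993. Ugt2b1 had the largest difference, at 2.25-fold on average, and it was the 1 member of 9 at an unadjusted p under 0.05, where 4.23% of all probes met that limit in either direction and 1.97% with a higher mean in dark tea. Sult1e1, the oestrogen sulfotransferase gene, differed by a smaller 1.37-fold but was the 1 member whose groups did not overlap. Of all probes, 4.87% did not overlap with dark tea higher and 5.54% with dark tea lower. The means of 8 members were higher with dark tea and that of Sult1c2 was lower, against 49.7% of all probes with a higher mean. The median log2 difference was 0.225 over the 9 members, 0.316 over the 4 UGT genes and 0.075 over the 5 SULT genes, against -0.0022 over all probes. Most members are bright, and the brighter probes, with means above the median of all probe means, had a median of 0.0557. Of these 13209 probes, 7278 had a higher mean with dark tea. In that setting, which leaves out Ugt2b7, 7 members were higher and their median was 0.15. Without control replicate 1, 5 members had a higher mean and the median was 0.036, with 50.7% of all probes then higher in dark tea. Without dark tea replicate 3 the median was 0.424. Exact two-sided permutation tests over the 6 arrays can give no p below 0.1 with 3 arrays per group.

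**Figure D1:**
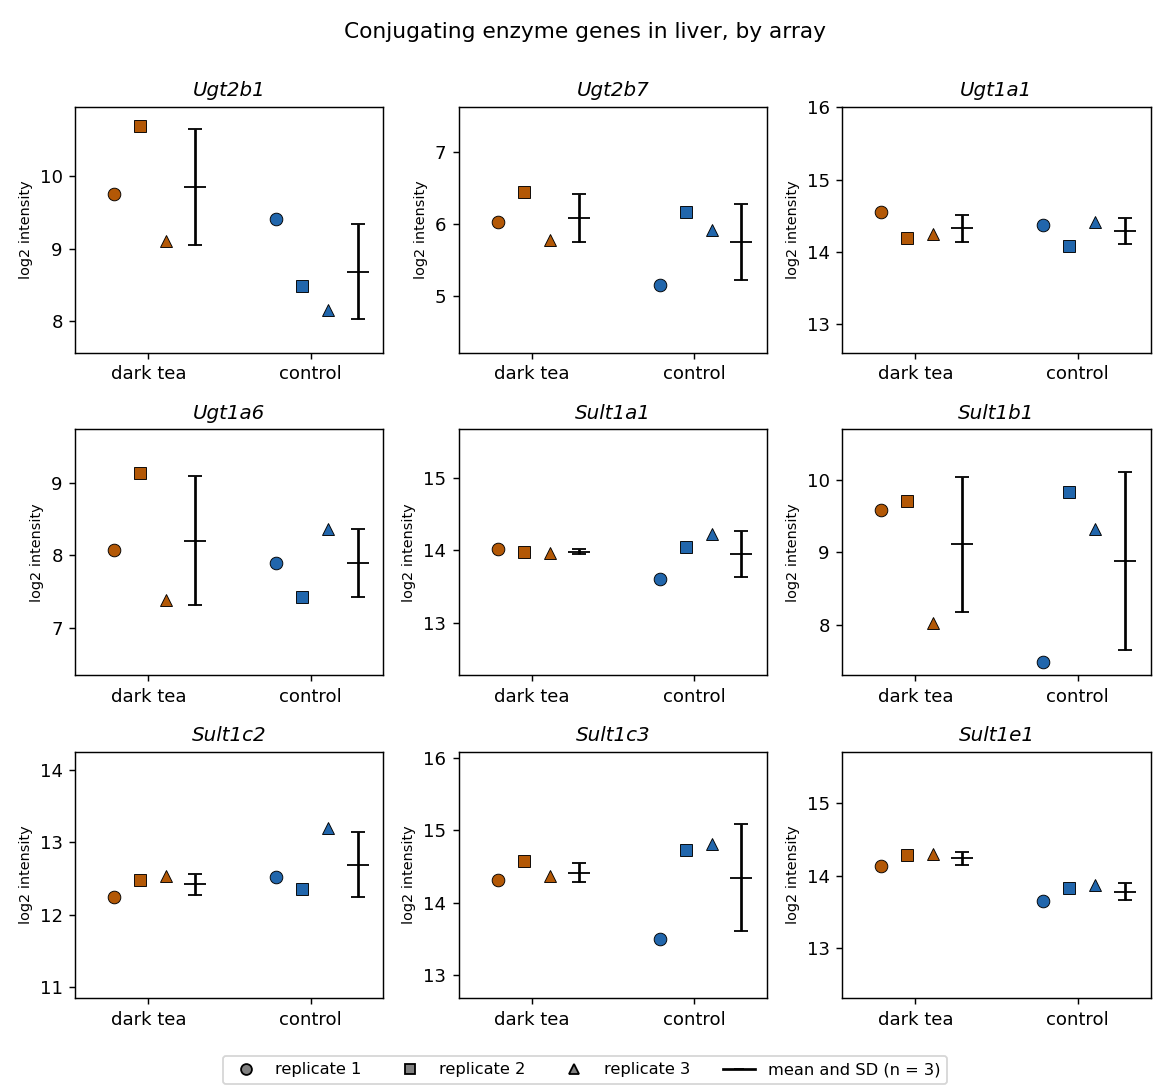
Log2 intensity of the 9 conjugation genes in each array, with dark tea (orange) left of control (blue), replicate number by symbol, and the mean and SD of 3 arrays as a black bar. Each panel spans the same log2 range around its own gene's mean. The Sult1e1 groups are apart at 14.13 to 14.30 and 13.65 to 13.87, and in the other 8 panels the groups overlap.

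Ugt2b1 encodes a rat UGT that conjugates testosterone and several drugs, and it is known to be inducible by phenobarbital. Its log2 intensity was 9.75, 10.69 and 9.10 in dark tea replicates 1, 2 and 3, and 9.41, 8.48 and 8.15 in control replicates 1, 2 and 3. The groups overlapped, because dark tea replicate 3 lay below control replicate 1. The mean was 9.85 ± 0.80 with dark tea and 8.68 ± 0.66 in controls (SD, n = 3 each), a log2 difference of 1.17 ± 0.46 (SE, 95% interval 0.14 to 2.19). This fell short of the threshold (limma, adjusted p = 0.949), and the exact permutation p was 0.2. The difference kept its sign with each array left out, at 1.22 when dark tea replicate 1 was omitted, 0.74 for dark tea replicate 2, 1.07 for control replicate 2 and 0.90 for control replicate 3. In these 4 omissions the unadjusted limma p was 0.05 or above. Without dark tea replicate 3 the difference was 1.54, and without control replicate 1 it was 1.53 ± 0.41, with a limma adjusted p of 0.608. Among all probes 5.63% had an unadjusted p under 0.05 without control replicate 1, and Ugt2b1 was the 1 member that did. When limma weighted the arrays, giving dark tea replicate 2 a weight of 4.504 and control replicate 1 a weight of 0.253, the Ugt2b1 difference was 1.95 ± 0.35 with an adjusted p of 0.053, and 27 probes (0.102%) passed.

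The 250 bases before the RefSeq start of Ugt2b1 are shown because this gene had the largest difference, at chr14:21378632-21378881 of GRCr8, plus strand. Capitals in this and the later sequences mark matches to any of 7 searched motifs on either strand.
Ugt2b1: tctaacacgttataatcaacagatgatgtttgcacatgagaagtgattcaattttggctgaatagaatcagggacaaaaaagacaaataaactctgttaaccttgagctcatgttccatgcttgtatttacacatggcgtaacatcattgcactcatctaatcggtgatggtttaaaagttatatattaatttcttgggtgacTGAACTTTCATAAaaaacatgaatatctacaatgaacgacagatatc
The motifs were GTTAAT (a half-site of HNF1), CAAAGTCCA (HNF4), AGTTCA (a half-site of the xenobiotic receptors PXR and CAR), GCGTG (the aryl hydrocarbon receptor core), TGACNNNGC (NRF2), TTATGNAA (the D-box bound by DBP) and TTCNNNGAA (STAT5). In the Ugt2b1 window the capitals hold 2 matches that share 1 base, AGTTCA on the opposite strand from 47 bases before the start and TTATGNAA on the opposite strand from 42 bases before it. Of 33469 windows of this length, 12.2% hold AGTTCA and 3.28% hold TTATGNAA. A match is a string of letters and no measured binding site.

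Ugt2b7 is named after the human enzyme that conjugates morphine and steroids. The 6 arrays were dim for this row, with log2 intensities of 6.02, 6.44 and 5.78 in dark tea replicates 1 to 3 and 5.16, 6.17 and 5.92 in control replicates 1 to 3. Control replicate 1 lay 0.24 below its own random control row, so the size of the difference is uncertain. That difference was 0.33 ± 0.35 (SE), and 0.04 without control replicate 1. The Ugt2b7 row was the 1 member whose mean lay below 6.475, the median of all probe means.

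Ugt1a1 encodes the bilirubin-conjugating enzyme. The row read 14.56, 14.20 and 14.25 in dark tea replicates 1 to 3 and 14.37, 14.09 and 14.42 in control replicates 1 to 3. These 6 values spread over less than the range of any other member, and the groups overlapped. The log2 difference was 0.04 ± 0.29 (SE, 95% interval -0.61 to 0.69), an interval that holds no difference of 2-fold in either direction. It ran from -0.07 without dark tea replicate 1 to 0.11 without dark tea replicate 2.

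Ugt1a6 encodes the enzyme for small planar phenols and is a known target of the aryl hydrocarbon receptor. On the log2 scale its intensity was 8.07, 9.14 and 7.38 in dark tea replicates 1 to 3 and 7.90, 7.42 and 8.36 in control replicates 1 to 3. Dark tea held both the highest array and the lowest. The difference was 0.30 ± 0.45 (SE), turned to -0.17 without dark tea replicate 2 and was 0.71 without dark tea replicate 3. With array weights it was 1.06 ± 0.38 and did not pass (limma, adjusted p = 0.259).

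The 2 Ugt1a windows are printed side by side because these genes, which share their downstream exons, start from separate promoters. They lie at chr9:96248893-96249142 for Ugt1a1 and chr9:96194768-96195017 for Ugt1a6, both on the plus strand of GRCr8.
Ugt1a1: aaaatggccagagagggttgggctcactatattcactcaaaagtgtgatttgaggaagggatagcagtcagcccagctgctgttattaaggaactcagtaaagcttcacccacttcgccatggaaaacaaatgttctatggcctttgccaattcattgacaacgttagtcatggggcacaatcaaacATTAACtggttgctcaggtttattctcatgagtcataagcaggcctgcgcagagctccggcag
Ugt1a6: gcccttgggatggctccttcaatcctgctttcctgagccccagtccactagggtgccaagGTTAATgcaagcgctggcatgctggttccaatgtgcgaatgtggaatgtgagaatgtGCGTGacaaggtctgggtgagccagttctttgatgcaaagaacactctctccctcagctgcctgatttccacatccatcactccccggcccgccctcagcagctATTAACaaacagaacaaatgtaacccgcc
Both hold the HNF1 half-site GTTAAT, which 6.45% of the 33469 windows hold. It lies on the opposite strand from 63 bases before the Ugt1a1 start, and from 190 (same strand) and 29 bases (opposite strand) before the Ugt1a6 start. The Ugt1a6 window also holds GCGTG from 133 bases before its start, a string found in 25.9% of windows. Among the 9 members GTTAAT was found in these 2 windows alone and GCGTG in that of Ugt1a6 alone.

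Sult1a1 encodes the main phenol sulfotransferase of rat liver. Log2 intensities were 14.02, 13.97 and 13.96 in dark tea replicates 1 to 3 and 13.60, 14.04 and 14.22 in control replicates 1 to 3. The dark tea values lay within the control range. The difference was 0.03 ± 0.30 (SE, 95% interval -0.63 to 0.70), and -0.15 without control replicate 1.

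Sult1b1 encodes a sulfotransferase of thyroid hormones and phenols. Its log2 intensity was 9.58, 9.71 and 8.03 in dark tea replicates 1 to 3 and 7.49, 9.83 and 9.33 in control replicates 1 to 3. One array of each group, dark tea replicate 3 and control replicate 1, lay more than 1 log2 unit below both other arrays of its group. Sult1b1 had the widest spread of the members, with an SD within groups of 1.09, where the median of all probes was 0.421. The difference of 0.23 ± 0.62 (SE) therefore has a 95% interval from -1.15 to 1.60. It turned to -0.47 without control replicate 1, -0.01 without dark tea replicate 1 and -0.08 without dark tea replicate 2, and was 0.76 without dark tea replicate 3.

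Sult1c2 and Sult1c3 belong to the SULT1C subfamily. The Sult1c3 enzyme has been known in rat liver for sulfonating N-hydroxy arylamines, a step that turns some carcinogens into reactive esters. Sult1c3 had a log2 intensity of 14.31, 14.57 and 14.36 in dark tea replicates 1 to 3 and 13.49, 14.72 and 14.81 in control replicates 1 to 3. The dark tea arrays lay above control replicate 1 and, apart from that array, below both controls. Its difference was 0.07 ± 0.39 (SE) with all arrays and -0.35 ± 0.31 without control replicate 1 (limma, adjusted p = 0.931). Sult1c2 had a log2 intensity of 12.24, 12.48 and 12.53 in dark tea replicates 1 to 3 and 12.52, 12.36 and 13.20 in control replicates 1 to 3. Control replicate 3 was the high array, and without it the Sult1c2 difference of -0.28 ± 0.32 (SE) was -0.02.

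Sult1e1 encodes oestrogen sulfotransferase, which inactivates oestrogens, and in rat its liver expression is known to be higher in males. Its log2 intensity was 14.13, 14.29 and 14.30 in dark tea replicates 1 to 3 and 13.65, 13.83 and 13.87 in control replicates 1 to 3. Each dark tea array lay above each control array. The mean was 14.24 ± 0.09 with dark tea and 13.78 ± 0.12 in controls (SD, n = 3 each), and the SD within groups of 0.11 was the smallest of the members. The log2 difference of 0.45 ± 0.28 (SE, 95% interval -0.17 to 1.08) did not pass (limma, adjusted p = 0.949), with limma's SE resting in part on the spread of all probes. The exact permutation p was 0.1, the smallest that 3 against 3 can give. With an array left out the difference lay between 0.39 and 0.51. The window before its start, at chr14:20701230-20701479 of GRCr8, plus strand, is shown because Sult1e1 is the member with separate groups, and it holds none of the 7 motifs.
Sult1e1: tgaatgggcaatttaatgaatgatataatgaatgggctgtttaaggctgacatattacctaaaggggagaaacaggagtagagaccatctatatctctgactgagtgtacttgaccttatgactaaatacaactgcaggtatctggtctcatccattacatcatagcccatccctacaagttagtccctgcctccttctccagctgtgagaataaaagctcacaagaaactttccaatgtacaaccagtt
Matches in the remaining windows were AGTTCA in Sult1b1, from 59 bases before its start, and TTCNNNGAA in Ugt2b7, from 13 bases before its start, against 7.67% of all windows for TTCNNNGAA. CAAAGTCCA and TGACNNNGC were in none of the 9 windows, and in 0.338% and 10.1% of all windows.

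**Figure D2:**
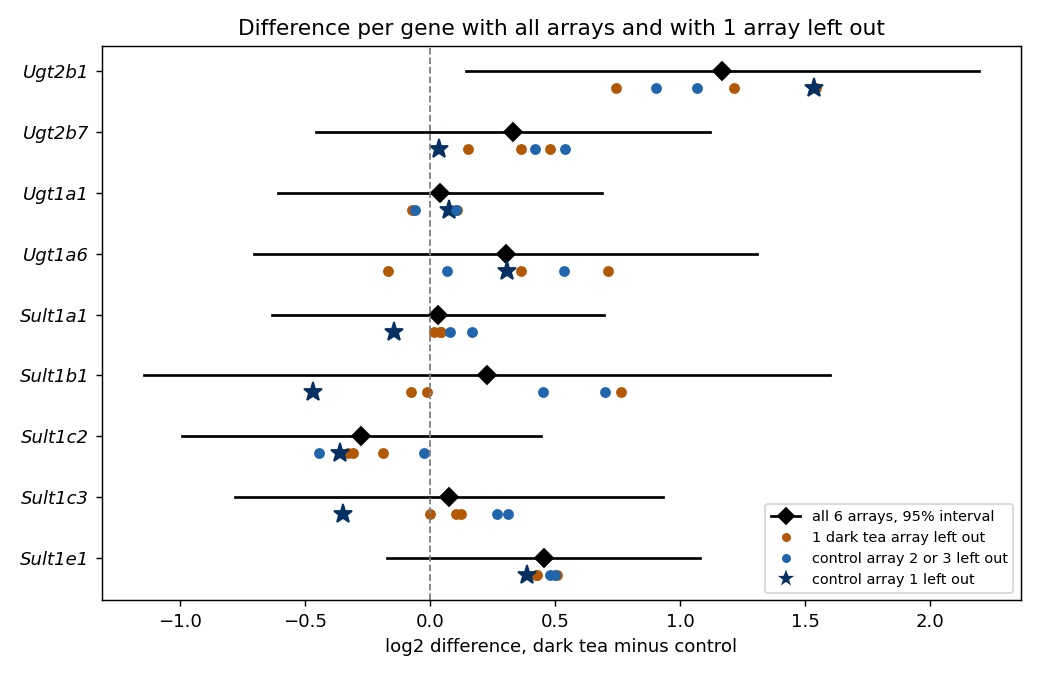
Log2 difference, dark tea minus control, for each conjugation gene with all 6 arrays (diamond, with limma's 95% interval) and with 1 array left out (orange, a dark tea array, blue, control replicate 2 or 3, star, control replicate 1). The interval of Ugt2b1 lies above 0 and those of the other 8 hold 0, and the star lies on the other side of 0 from the diamond for Sult1a1, Sult1b1 and Sult1c3.

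The members did not follow 1 common order of arrays. Control replicate 1 was the lowest of the 6 arrays for 5 of 9 members, namely Ugt2b7, Sult1a1, Sult1b1, Sult1c3 and Sult1e1, and the highest for none. Over all probes it was the lowest array for 27.4% and the highest for 28.1%. Its lowest values included 4 of the 5 SULT genes. Dark tea replicate 2 was the highest array for 3 members, Ugt2b1, Ugt2b7 and Ugt1a6, against 10.3% of all probes, and control replicate 3 for 3 others, Sult1a1, Sult1c2 and Sult1c3, against 16.4%. The median deviation of the 9 members from their gene means was 0.102, 0.276 and -0.067 in dark tea replicates 1 to 3 and -0.361, -0.179 and 0.250 in control replicates 1 to 3. Without control replicate 1, Sult1e1 was the 1 SULT gene of 5 with a higher mean in dark tea, and the median of the 5 was -0.351, while all 4 UGT genes kept a higher mean with a median of 0.191. Whether the low values of control replicate 1 come from the liver or from the array was not tested.

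**Figure D3:**
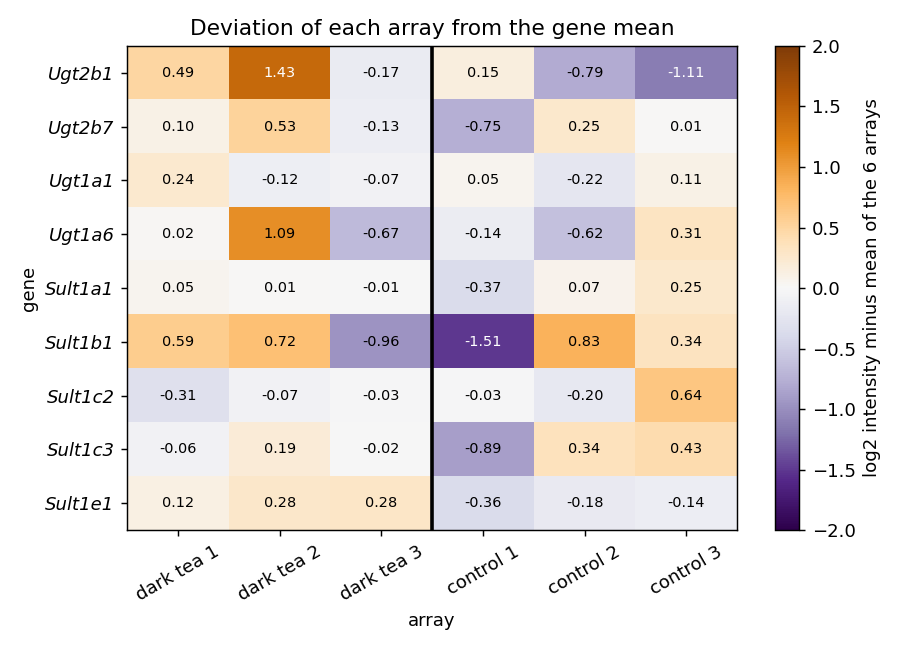
Log2 intensity of each conjugation gene (rows) in each array (columns, dark tea left of the line, control right of it) minus the gene's mean over the 6 arrays, with the value printed in each cell. Control replicate 1 holds the lowest cell, -1.51 for Sult1b1, and dark tea replicate 2 the highest, 1.43 for Ugt2b1.

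Other UGT genes showed no shared direction. Of 12 measured, 6 had a higher and 6 a lower mean with dark tea, and none passed the adjusted threshold. Among all probes 4.23% had an unadjusted limma p under 0.05, and 1.97% had it with dark tea higher. Ugt1a5, a further first-exon gene of the Ugt1a locus, was the 1 of 12 under that limit. Its log2 intensity was 8.77, 8.43 and 8.08 in dark tea replicates 1 to 3 and 7.79, 7.36 and 7.40 in control replicates 1 to 3, so the groups did not overlap. Of all probes, 4.87% were likewise separate with dark tea higher. The Ugt1a5 difference was 0.91 ± 0.31 (SE, limma adjusted p = 0.949), between 0.74 and 1.09 with an array left out. The Ugt2b row had 13.76, 13.34 and 11.62 in dark tea replicates 1 to 3 and 13.01, 14.35 and 13.49 in control replicates 1 to 3, a difference of -0.71 ± 0.55 that was -0.07 without dark tea replicate 3. Ugt2a1 differed by 0.58 ± 0.43, with 3 arrays below their random control row, and by 0.18 without dark tea replicate 2. The Ugt2b15 row, which an older name ties to Ugt2b17, had 14.15, 14.11 and 14.14 in dark tea replicates 1 to 3 and 14.05, 14.21 and 14.24 in control replicates 1 to 3, a difference of -0.03 ± 0.28. Counted as a further member, it would leave 8 means higher and a median of 0.150.

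Other sulfotransferase genes moved little relative to their spread. Of 6 measured, 4 had a higher and 2 a lower mean, with none at an unadjusted p under 0.05 and a median of 0.133, which was 0.014 without dark tea replicate 1 and 0.316 without dark tea replicate 2. Sult2a2 and Sult2a6, of the bile acid and hydroxysteroid sulfotransferases, differed by 0.34 ± 0.42 and 0.32 ± 0.44, and Sult2b1 by 0.18 ± 0.36 (SE). The Sult2a2 difference was -0.03 without dark tea replicate 1, the Sult2a6 difference -0.14 without control replicate 1, and the Sult2b1 difference -0.11 without dark tea replicate 3. Sult2b1 was near background, with a smallest gap of 0.07 above the random control row.

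Genes that supply the donor molecules included 2 sulfate transporters with opposite differences. Slc26a1, a sulfate and oxalate exchanger of hepatocytes, had a log2 intensity of 6.20, 6.54 and 6.17 in dark tea replicates 1 to 3 and 4.73, 5.50 and 6.03 in control replicates 1 to 3. Slc26a2, a widely expressed sulfate transporter, had 5.70, 5.69 and 5.42 in dark tea replicates 1 to 3 and 6.90, 6.52 and 6.02 in control replicates 1 to 3. Neither pair of groups overlapped, where 4.87% of all probes were separate with dark tea higher and 5.54% with dark tea lower. The differences were 0.89 ± 0.37 for Slc26a1 and -0.87 ± 0.32 for Slc26a2 (SE, limma adjusted p = 0.949 for both), at levels near background, with control replicate 1 below its random control row for Slc26a1. Without control replicate 1 they were 0.54 and -0.66. Slc35b3, a PAPS transporter of the Golgi, differed by -0.72 ± 0.52, and by -0.05 without control replicate 1. Ugdh, which makes UDP-glucuronic acid, differed by -0.05 ± 0.45. In all, 5 of the 9 measured donor genes had a higher and 4 a lower mean, with a median of 0.061 that was -0.077 without dark tea replicate 2 and 0.318 without dark tea replicate 3.

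Of 7 measured genes for removal of glucuronate and sulfate, 3 had a higher and 4 a lower mean, with a median of -0.205 and none at an unadjusted p under 0.05. Gusb, the lysosomal beta-glucuronidase that splits glucuronides, had a log2 intensity of 7.46, 7.13 and 6.87 in dark tea replicates 1 to 3 and 8.02, 7.54 and 7.61 in control replicates 1 to 3. Every dark tea array lay below every control array, as for 5.54% of all probes. The Gusb difference was -0.57 ± 0.31 (SE, limma adjusted p = 0.949). Arsa, the lysosomal arylsulfatase A, differed by -0.58 ± 0.33, and its groups also did not overlap. Without dark tea replicate 1, which lay below its random control row for Arsa, the difference was -0.32. The groups of Sts, a further gene of this list, did not overlap in the other direction, as for 4.87% of all probes. The Sts difference was 0.34 ± 0.30, and 0.14 without dark tea replicate 3. Sumf2 differed by -0.52 ± 0.35, and by -0.22 without control replicate 1. The median of the list lay between -0.259 and -0.051 with an array left out, the second value without control replicate 3. Transporters of conjugates had 3 of 9 higher and 6 lower, with a median of -0.271 that was -0.066 without dark tea replicate 3. The 3 with the smallest p were Abcc4 at 0.50 ± 0.38, Slco1a1 at -0.43 ± 0.34 and Slc22a7 at -0.38 ± 0.33. Abcc4 differed by 0.18 without control replicate 1, which lay below its random control row for Abcc4. Without dark tea replicate 3 Slco1a1 differed by -0.19 and Slc22a7 by -0.16.

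Among 15 measured regulators of conjugating enzymes, 6 had a higher and 9 a lower mean, with a median of -0.065, and 1 reached an unadjusted p under 0.05. This was Nr2f1, an orphan nuclear receptor gene, at -0.98 ± 0.41 (SE, limma adjusted p = 0.949), and -0.61 without control replicate 3. The median of the list was -0.289 without control replicate 1, with 5 means higher and 10 lower, and 0.009 without dark tea replicate 3. Rxra, the shared partner of PXR, CAR and other nuclear receptors, differed by -0.79 ± 0.40, with groups that did not overlap. Its difference was -0.36 without control replicate 1, whose value of 11.10 stood above 9.66 and 9.93 in the other controls. Arnt, which encodes the dimer partner of the aryl hydrocarbon receptor, had a log2 intensity of 9.99, 9.73 and 9.88 in dark tea replicates 1 to 3 and 7.12, 9.71 and 9.59 in control replicates 1 to 3. Its groups did not overlap, with control replicate 1 far below the rest. The Arnt difference of 1.06 ± 0.59 (SE, limma adjusted p = 0.949) was the largest of the 15 and was 0.22 without control replicate 1. The receptor genes whose motifs were searched, chosen for mention after their values were seen, differed by 0.48 ± 0.39 for Nr1i2 (PXR), -0.06 ± 0.42 for Nr1i3 (CAR) and -0.14 ± 0.35 for Ahr. The Nr1i2 difference was 0.05 without control replicate 1. Over the 6 lists, 58 of 80 genes were measured, 27 with a higher and 31 with a lower mean. Of the 58, 4 had an unadjusted p under 0.05, 2 in each direction, against 4.23% of all probes. Groups did not overlap for 5 with dark tea higher and 4 with dark tea lower, against 4.87% and 5.54% of all probes.

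**Figure D4:**
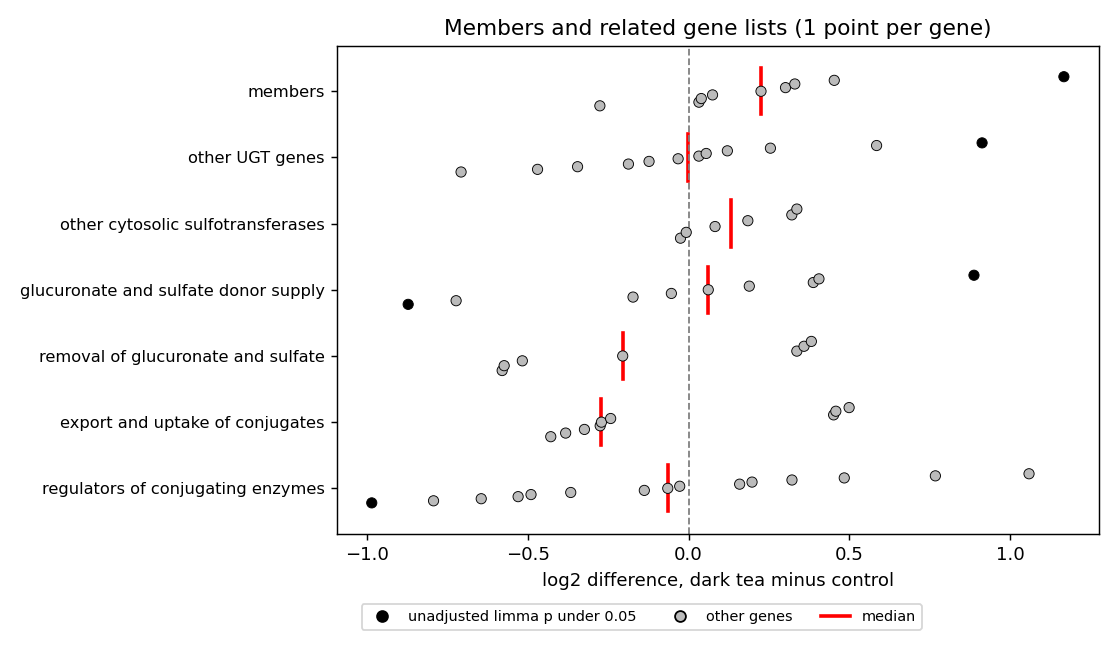
Log2 difference, dark tea minus control, for the 9 members and for each gene of the 6 related lists, with a red line at each list's median and black points for an unadjusted limma p under 0.05. Black points are Ugt2b1, Ugt1a5, Slc26a1, Slc26a2 and Nr2f1, and the list medians lie between -0.271 and 0.225.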

How the data were processed

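Each deposited value is a linear intensity of 1 row, named by a RefSeq transcript, on 1 array, and such a row is called a probe here. The authors made these intensities with RMA, per the submitters' processing notes, with version and settings not given in the sources used here. That method makes the arrays' distributions alike, so total signal cannot be compared. The 1 random control row was left out, log2 was taken without a pseudocount, and 26419 probes were fitted with limma 3.58.1 in R 4.3.3 (lmFit, eBayes, two-sided, Benjamini-Hochberg over all probes, threshold 0.05). SE and 95% intervals are limma's. The fit was tested on simulated data with 1 variance for all probes, where a change of 1 log2 unit passed the adjusted threshold in few probes. Of the probes, 9747 were named through RefSeq transcripts in the GRCr8 table and 16672 have no name here. With several probes the one with the highest mean stood for the gene.

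Members, lists and motifs were chosen with earlier results of these data known. Every member is named, with the 3 genes of smallest p in each related list. Ugdh, Sts, Nr1i2, Nr1i3, Ahr and the marker Dcn were added after their values were seen, and Ugt2b15 for its older name. Promoter windows are the 250 bases before the start in RefSeq's GRCr8 table, matched for all 9 members. The number of arrays limits the precision. Alternatives were those in the closing section.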

Additional observations from a re-analysis of the deposited data

How the results depend on the processing

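Over 14 alternative settings, 125 member differences were compared, of which 111 kept their direction and stayed short of the adjusted threshold and 14 turned direction, in 5 of the 9 members. Ugt2b1, Ugt2b7, Sult1c2 and Sult1e1 kept their direction in every setting that held them, with Ugt2b7 lost when dim probes were left out. A second quantile normalization turned Ugt1a1 to -0.075, Sult1a1 to -0.057 and Sult1c3 to -0.0057, leaving 5 of 9 higher, and array weights turned Sult1a1 to -0.082 and Sult1c3 to -0.136. With an array left out, the difference ran from -0.072 to 0.108 for Ugt1a1, -0.170 to 0.710 for Ugt1a6, -0.146 to 0.165 for Sult1a1, -0.471 to 0.764 for Sult1b1 and -0.351 to 0.309 for Sult1c3. Members higher with dark tea then numbered 5 to 8. An unadjusted p under 0.05 was reached by 0 to 1 members, 2 to 4 related-list genes (4 with all arrays) and 586 to 1567 of 26419 probes. Probes past the adjusted threshold then numbered 0 to 6. Probes past that threshold numbered 0 with the replicate block, 0 with Welch's test with Benjamini-Hochberg adjustment (857 at an unadjusted p under 0.05) and 27 with array weights. With the replicate block 787 had an unadjusted p under 0.05. Array weights gave 2 members (Ugt2b1 and Ugt1a6) and 8 related-list genes under that limit, where 3363 of 26419 probes also met it. Leaving out dim probes gave 2 such genes, with 561 of 13209 probes under that limit, and Welch's test gave 1. Under Welch's test the 1 member under that limit was Sult1e1 in place of Ugt2b1. The cause of these shifts was not tested. Deviations from the group mean had correlations of -0.224, 0.013 and -0.252 between arrays of equal replicate number. With 3 arrays per group, these cannot decide whether equal numbers were handled together, which the labels do not state. The replicate block left 8 members higher with a median of 0.225. Counting the Ugt2b15 row as a member was chosen after seeing the data. Signal near the random control limits Ugt2b7 among the members and, among the related genes, rows such as Slc26a1, Arsa, Abcc4 and Sult2b1. The upper limit of the scale for the brightest rows is not known.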
